A study of Mus musculus with 16 samples.

Results

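R-loops, three-stranded structures of an RNA paired with one DNA strand, were examined at the zinc finger protein (Zfp) genes of mouse NIH/3T3 fibroblasts. Members were all peaks of the 8 immunoprecipitate lists whose summit lay inside, or within 1000 bp of, a protein-coding gene with a symbol of Zfp followed by digits (GENCODE M21, GRCm38, chromosomes 1 to 19). There were 566 such peaks among 75093 on these chromosomes, and 77297 in all lists. They lay in 189 of the 384 Zfp genes (49.2%, where 46.7% of all 20807 protein-coding genes had a peak). Merging of overlapping peaks left 349 regions. Of the 566 summits, 49 (8.66%) also lay near a protein-coding gene of another name, and 3 lay near more than 1 Zfp gene.

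The peaks came from DNA:RNA hybrid immunoprecipitation sequencing (DRIP-seq) with the antibody S9.6. NIH/3T3 cells were wild type (WT), or Xpo4 knockout (KO) cells made with CRISPR-Cas9 as 1 cell line. Xpo4 encodes exportin 4, which carries cargo out of the nucleus. All DNA was cut with MseI, DdeI, AluI and MboI and before pull-down was treated with RNase R (RNase R+), an exonuclease for linear but not circular RNA, or kept in its buffer without enzyme (RNase R-). Each of the 4 groups (KO RNase R-, KO RNase R+, WT RNase R- and WT RNase R+) had 2 replicates, and nothing states that those were separate cultures, so p-values measure the spread between these libraries only. The peak names in the list of WT RNase R- replicate 1 carry the number of replicate 2, though its values differ from those of the replicate 2 list, which leaves the replicate number in doubt but not the group. The lists held between 271 and 32031 peaks, and the 8 inputs of the 16 labelled samples were not analysed here. The KO libraries had a background level (the lowest height the peak caller expected in a list) of 0.843 to 0.924 fragments and the WT libraries of 0.425 to 0.558. The uniquely mapped reads that the study lists were fewer in WT than in KO for RNase R-, where genotype and depth therefore cannot be told apart in the number of peaks. For RNase R+ they lay on both sides of the KO libraries.

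Zfp genes encode mostly C2H2 zinc finger proteins, in which repeated fingers bind DNA. Many also carry a KRAB domain that recruits the corepressor TRIM28 and, through it, heterochromatin factors that silence transposable elements. They stand in tandem clusters that arose by duplication, and the finger array usually lies in one long last exon. A smaller group, including the Zfp36 family, has CCCH fingers that bind AU-rich RNA instead.

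The sequences below show sequence types found at or near the summits, and all were read from GRCm38 in the direction of the gene. The first set holds windows of 120 bases around the summit of 4 of the strongest KO peaks, none of which was called in a WT library. Capitals mark runs of 3 or more G on the gene's strand, a feature of DNA strands that do not pair with the RNA of an R-loop.
Zfp36l1 (chr12:80111161-80111280, minus strand): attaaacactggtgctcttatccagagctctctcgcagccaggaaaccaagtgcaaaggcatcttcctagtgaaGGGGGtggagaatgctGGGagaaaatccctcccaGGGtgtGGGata
Zfp160 (chr17:21009174-21009293, plus strand): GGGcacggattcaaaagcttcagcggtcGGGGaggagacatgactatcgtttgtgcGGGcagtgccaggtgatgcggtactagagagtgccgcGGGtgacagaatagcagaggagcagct
Zfp784 (chr7:5038043-5038162, minus strand): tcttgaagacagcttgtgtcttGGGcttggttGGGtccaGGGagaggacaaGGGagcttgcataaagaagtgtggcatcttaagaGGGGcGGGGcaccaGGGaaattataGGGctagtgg
Zfp281 (chr1:136625810-136625929, plus strand): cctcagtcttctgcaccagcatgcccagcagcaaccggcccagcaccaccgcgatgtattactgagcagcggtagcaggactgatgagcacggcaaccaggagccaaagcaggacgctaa
The Zfp36l1, Zfp160 and Zfp784 windows held 14, 13 and 26 bases in such runs. The Zfp281 window held 0.

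The second set holds introns with a long run of purines or of pyrimidines in the 300 bases around the summit. It is shown because such runs were frequent in the windows of intron peaks. Capitals mark the longest such run in the 300 bases around the summit, as far as it falls in the 120 bases printed.
Zfp536 (chr7:37606342-37606461, minus strand): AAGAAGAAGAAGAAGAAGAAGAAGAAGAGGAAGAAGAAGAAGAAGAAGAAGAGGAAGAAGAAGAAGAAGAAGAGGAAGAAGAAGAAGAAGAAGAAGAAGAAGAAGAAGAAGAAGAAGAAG
Zfp37 (chr4:62218441-62218560, minus strand): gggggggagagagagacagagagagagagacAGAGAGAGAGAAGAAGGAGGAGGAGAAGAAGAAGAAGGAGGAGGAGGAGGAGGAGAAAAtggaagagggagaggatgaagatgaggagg
Zfp697 (chr3:98436446-98436565, plus strand): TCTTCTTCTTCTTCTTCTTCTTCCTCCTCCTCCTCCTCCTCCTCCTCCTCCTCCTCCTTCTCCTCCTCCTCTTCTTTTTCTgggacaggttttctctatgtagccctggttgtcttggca
Within the 300 bases searched, the runs were 154, 59 and 81 bases long. The Zfp697 run begins at the edge of those 300 bases, so its full length may be greater. It ends before the called region (chr3:98436530-98436879), and the printed window stops short of the summit at 98436596. The Zfp536 run and the Zfp37 run were purines on the gene's strand, and that of Zfp697 was pyrimidines.

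The number of Zfp peaks was set against the number expected if the peaks of all protein-coding genes were spread evenly over their length and flanks, of which Zfp genes make up 1.27% (13.0 of 1025 Mb). KO RNase R- replicates held 184 and 238 Zfp peaks, against 152 and 184 expected. KO RNase R+ replicates held 47 and 38, against 38.7 and 32.9. WT RNase R- replicates held 32 and 24, against 18.1 and 10.1. In WT RNase R+, replicate 1 held 0 of 99 protein-coding peaks, which allows a share of up to 3.03% (3 counts, counting error only), and replicate 2 held 3, against 1.26 and 1.60 expected. Observed numbers were therefore above expectation in 7 of 8 libraries, by 1.16-fold to 1.29-fold in KO and by 1.77-fold and 2.38-fold in WT RNase R-.

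Over the 8 libraries the mean log2 ratio of observed to expected peaks (0.5 added to each) was 0.26, and the exact sign-flip test over libraries, two-sided, gave p = 0.461 (adjusted p = 0.593 over 9 tests). The library with 0 peaks decided this value. Without WT RNase R+ replicate 1 the mean was 0.55 and the exact p was 0.0156. Without a cluster of 18 Zfp genes on chromosome 4 (chr4:145510759-147848366), an alternative chosen after seeing the data, the mean fell to 0.0052 and the exact p was 0.992. That mean still includes the library with 0 peaks, at -1.77. The log2 ratios without the cluster were 0.18 and 0.31 in KO RNase R- and 0.085 and -0.057 in KO RNase R+. They were 0.29 and 0.21 in WT RNase R- and 0.79 in WT RNase R+ replicate 2.

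**Figure D1:**
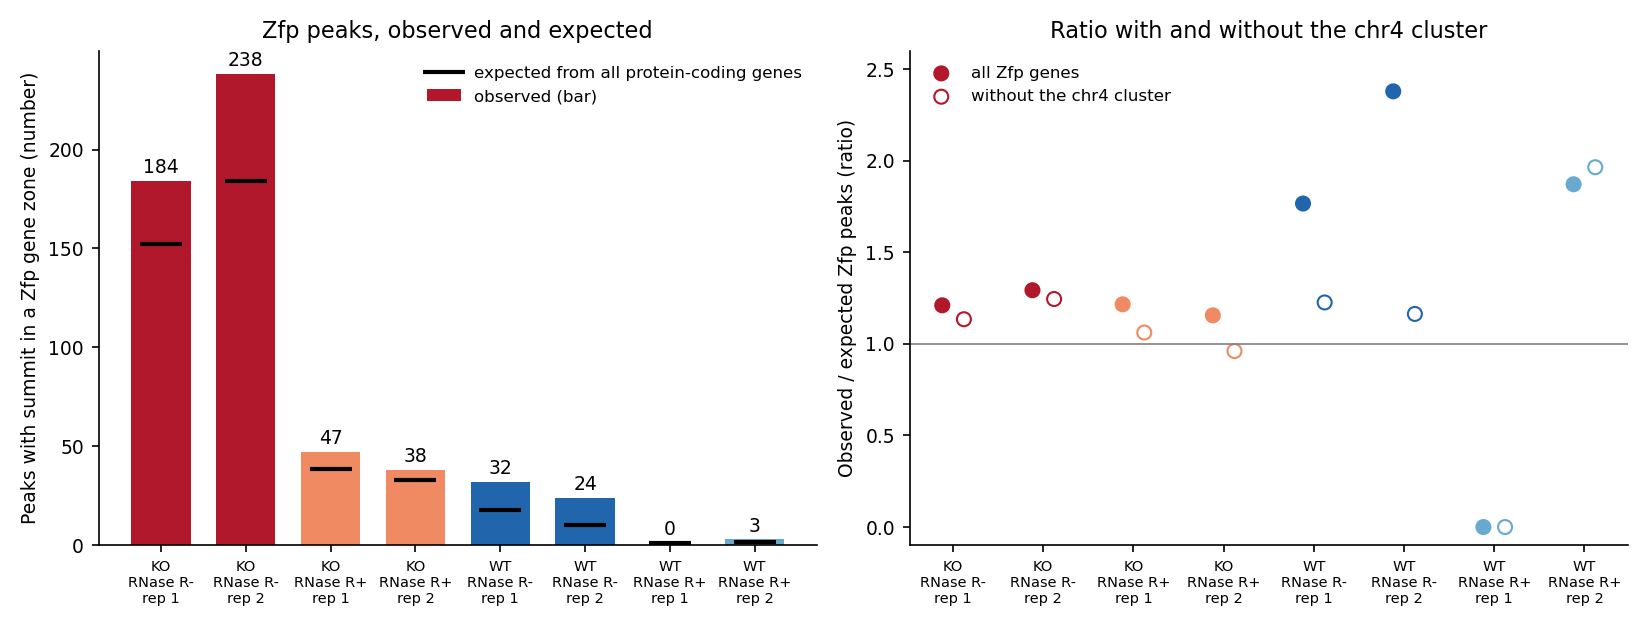
Left, number of peaks with the summit in or near a Zfp gene in each of the 8 libraries (bars), with the number expected from all protein-coding genes (black lines). Right, the ratio of observed to expected for all Zfp genes (filled) and without the chromosome 4 cluster (open); in both WT RNase R- libraries the ratio falls from 1.77 and 2.38 to 1.23 and 1.16.

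The genotype was compared next. In the RNase R- libraries KO held 7.43 times as many Zfp peaks as WT (a log2 difference of 2.89), with no overlap between the groups, and the exact permutation test gave p = 0.333, the smallest that 2 against 2 libraries allow. Peaks of all protein-coding genes did not overlap either, with 11946 and 14469 in KO and 1424 and 793 in WT. Zfp peaks were 1.54% and 1.64% of these in KO and 2.25% and 3.03% in WT. In the RNase R+ libraries the log2 difference was 5.01 with the same exact p = 0.333. It rests on WT numbers of 0 and 3 with 0.5 added, and was 3.61 without WT replicate 1 and 6.42 without WT replicate 2. Among the strongest peaks the numbers overlapped. Among the 2096 strongest peaks of each RNase R- list, KO had 19 and 18 in Zfp genes and WT had 18 and 24. Relative to expectation, the log2 ratio of KO minus WT was 0.049 (exact permutation test within treatment, p = 1), and its sign turned in 7 of 21 alternatives. This value averages opposite differences in the treatments. In RNase R- the mean log2 ratio of observed to expected was 0.32 in KO and 1.01 in WT. In RNase R+ it was 0.24 in KO and -0.54 in WT, the latter from 0 and 3 peaks.

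RNase R lowered the number of Zfp peaks in every comparison of libraries within a genotype. The log2 ratio of RNase R+ to RNase R- numbers, averaged over genotypes, was -3.35, with an exact permutation p = 0.0556, the smallest this design allows, and adjusted p = 0.333. The number expected from all protein-coding genes fell likewise. Relative to it, the log2 ratio was -0.81 (exact p = 0.111, adjusted p = 0.333), and without WT RNase R+ replicate 1 it was -0.18. The genotypes differed in this. In KO the mean log2 ratio of observed to expected was 0.24 with RNase R and 0.32 without. In WT it was -0.54 with RNase R, from 0 and 3 peaks, and 1.01 without.

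Counted by gene, 107 of 384 Zfp genes (27.9%, 95% Wilson interval 23.6 to 32.6) had a peak in both KO RNase R- libraries, where 26.9% of all protein-coding genes did. In both KO RNase R+ libraries there were 18 (4.69%, against 6.0% of all). Both of these shares were close to the background. In both WT RNase R- libraries there were 8 (2.08%, interval 1.06 to 4.06, against 1.49%), and 3 had a peak in a WT RNase R+ library (0.781%, against 0.663%). Zfp genes vary less in length than other genes, with quartiles of 11.7 and 28.5 kb against 6.60 and 46.0 kb. Among the 4860 other genes with a length between the Zfp quartiles, 22.1% were called in both KO RNase R- libraries, 3.97% in both KO RNase R+ libraries and 0.350% in both WT RNase R- libraries. The Zfp shares cover all 384 genes of any length, so the sets are unlike. The 8 Zfp genes called in both WT RNase R- libraries were all longer than the upper quartile, from 31.9 kb (Zfp985) to 462 kb (Zfp407). Counting genes called in both KO RNase R- and in neither WT RNase R- library gave 87 Zfp genes (22.7%, against 22.1%), and 16 Zfp genes were called in all 4 KO libraries (4.17%, against 5.49%).

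The 189 Zfp genes with a peak in at least 1 list were 49.2% of Zfp genes, close to the 46.7% of all protein-coding genes. The other 195 had no peak in any list. Another 70 were called in 1 library, 59 in 2, 31 in 3 and 25 in 4. Zfp984 was called in 5 libraries, and Zfp980, Zfp600 and Zfp536 in 6. Recurrence at the level of the region was lower. Of the 349 regions, 210 were called in 1 library. The 2 KO RNase R- lists shared 113 regions (61.4% of the regions of replicate 1 and 47.9% of those of replicate 2), and the KO RNase R+ lists shared 18 (38.3% and 47.4%). WT RNase R- lists shared 8 (25.0% and 33.3%). Of the 67 KO RNase R+ regions, 49 (73.1%) overlapped a KO RNase R- region, and of the 48 WT RNase R- regions, 23 (47.9%) did.

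Strength was read from fold enrichment, which the peak caller computes as summit height over expected level, with 1 added to both. The highest value was that of Zfp36l1, a CCCH protein that promotes decay of AU-rich mRNAs. Its intron (region chr12:80110586-80111259) had a fold of 31.5 and 29.8 in the KO RNase R- replicates and no peak in the other 6 lists. Zfp36, or tristetraprolin, had folds of 8.55 and 10.5 downstream of its end and of 5.83 and 9.93 at its start, in the same libraries. Zfp36l2 had 1 peak, in its last exon, of 6.25 in KO RNase R- replicate 2.

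Zfp324 followed, with 28.8 and 20.5 in KO RNase R- and 13.0 and 9.52 in KO RNase R+, in an exon that is not the last of a protein-coding transcript (chr7:12973795-12974226). This region still lies at the downstream end of the gene, which spans chr7:12965838-12974236 on the plus strand. Zfp160 had its peak at the start (chr17:21008979-21010045), with 19.8 and 22.0 in KO RNase R- and 19.2 and 12.7 in KO RNase R+. Its geometric mean over the RNase R+ replicates, 15.6, was the highest of any Zfp gene called in both. Zfp784 (14.0 and 20.04, then 11.1 and 8.28) and Zfp524 (15.2 and 15.3, then 4.34 and 5.13) were also called at the start in all 4 KO libraries. For Zfp281, a factor that binds G-rich promoters, the start had 16.3 and 18.99 in KO RNase R- and 9.16 in RNase R+ replicate 1 alone. None of these 5 genes, Zfp324 included, had a WT peak.

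The other genes of the highest 10 were Zfp68 (an intron, 17.6 and 15.3), Zfp553 (the start, 12.8 and 16.4), Zfp651 (starts, best folds 13.6 and 14.5) and Zfp513 (the start, 11.8 and 15.2). The next gene, Zfp628, had a geometric mean of 12.9, just under the 13.4 of Zfp513. Among the 18 genes called in both KO RNase R+ libraries, Zfp324 (geometric mean 11.1) came after Zfp160. Zfp326, a subunit of a complex that couples elongation to splicing, came next with 9.84, and its last exon held 11.4, 11.1, 8.32 and 11.6 in the 4 KO libraries. Zfp157 (an intron, 10.7, 12.7, 10.7 and 7.63) and Zfp580 (the start, 5.97, 10.5, 9.81 and 8.34) completed the 8 with Zfp784, Zfp600 and Zfp980. The starts of Zfp784, Zfp524 and Zfp580 lie within 1 tandem cluster of 6 genes on chromosome 7, and each summit also lay near Ccdc106 or Fiz1, so the gene cannot be told apart there. The same holds for the start of Zfp553 (near Sept1), the start of Zfp513 (near Snx17) and the Zfp628 last exon (near Nat14).

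**Figure D2:**
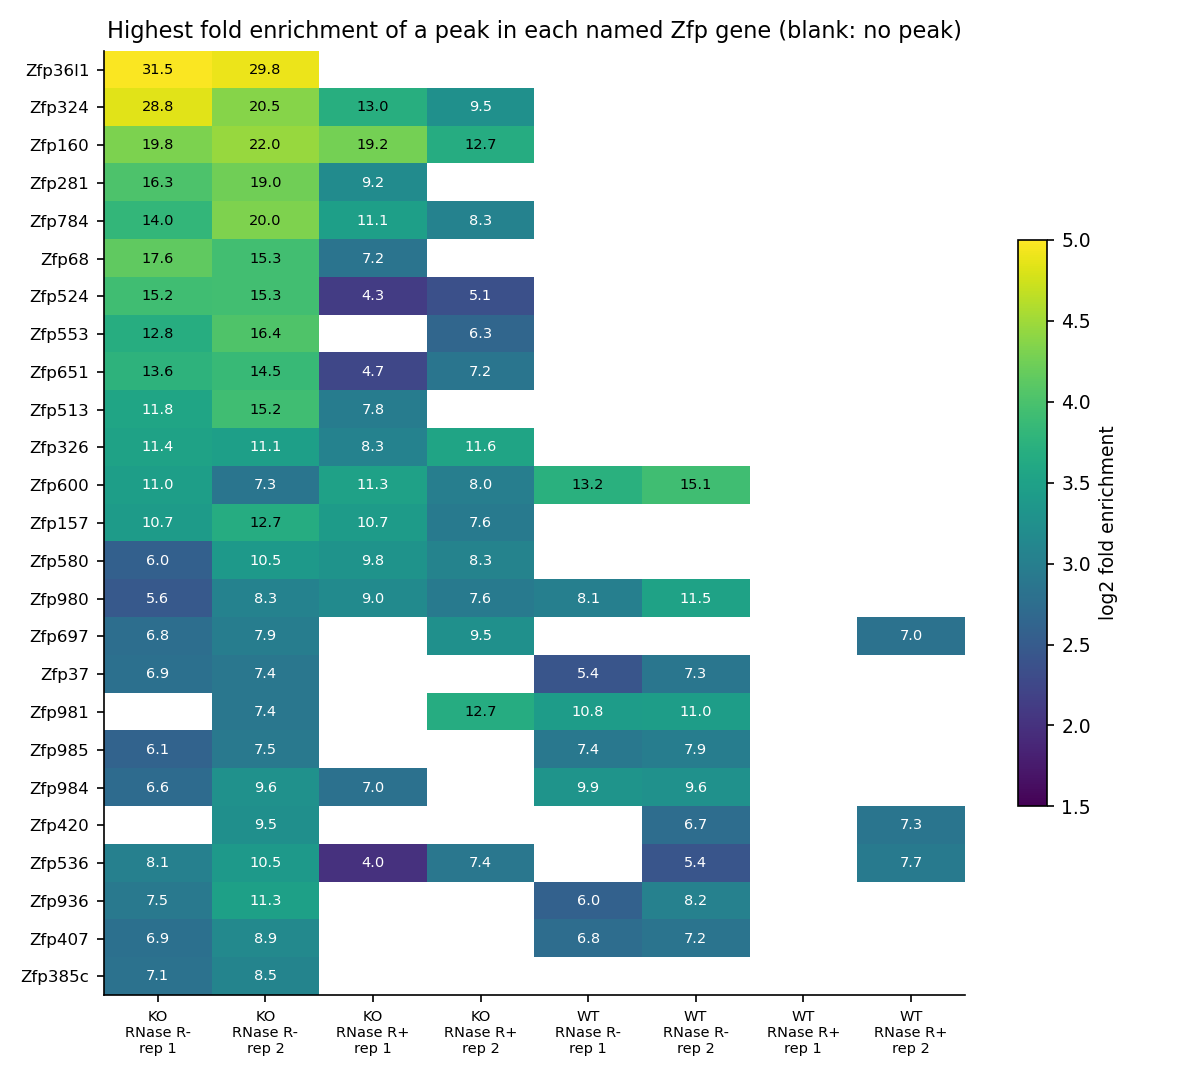
Highest fold enrichment of a peak (number and log2 colour scale) in 25 named Zfp genes (rows) and the 8 libraries (columns); blank cells have no peak. Genes from Zfp36l1 to Zfp513 are filled in the KO columns alone, and WT values appear in 11 genes, led by Zfp600 at 13.2 and 15.1.

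Taken over all Zfp peaks, fold enrichment was like that of other protein-coding genes. The median was 6.94 and 7.08 in KO RNase R- (other genes 6.94 and 6.86), 7.28 and 7.41 in KO RNase R+ (6.79 and 6.88) and 6.14 and 7.25 in WT RNase R- (6.56 and 6.73). The mean difference over the 6 libraries with at least 20 Zfp peaks was 0.044 on the log2 scale (exact sign-flip test, p = 0.188, adjusted p = 0.422).

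Position in the gene was recorded for each summit as start (within 1000 bp of a transcript start), last exon of a protein-coding transcript, other exon, intron or the remaining flank. In KO RNase R-, 36 of 184 and 48 of 238 peaks lay at starts (19.6% and 20.2%), where other genes had 16.0% and 16.0%. In KO RNase R+ it was 11 and 7 peaks (23.4% and 18.4%, others 18.7% and 15.9%). WT RNase R- had 1 and 0 at starts (3.12% and 0%, others 6.75% and 9.23%). Of these start summits, and those of the other lists, 23 of 103 also lay near a gene of another name. The start share was higher than in other genes in the 4 KO libraries and lower in both WT libraries. The mean difference was 0.34 percentage points (exact sign-flip test over 6 libraries, p = 0.938, adjusted p = 1). Its sign turned in 6 of 14 alternatives, and the value was 5.28 without the chromosome 4 cluster and 2.87 with the 5 prime end of each gene as its single start. Without the cluster WT RNase R- replicate 2 held 11 Zfp peaks, under the limit of 20, so that library dropped out too. Leaving out that library alone gave 2.26. Start zones take up 11.9% of the Zfp zones and 9.17% of those of other genes.

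Last exons held 29 and 26 of the KO RNase R- peaks (15.8% and 10.9%), against 4.67% and 4.57% in other genes. They held 6 and 2 of the KO RNase R+ peaks (12.8% and 5.26%, others 4.95% and 4.24%) and, in the WT RNase R- replicates, 1 and 0 (3.12% and 0%, others 1.36% and 1.43%). The share was higher than in other genes in 5 of 6 libraries, by 4.44 points on average, and did not pass the exact sign-flip test (p = 0.0938, smallest possible 0.0312, adjusted p = 0.333). Last exons also take up more of a Zfp gene: 9.14% of the Zfp zones, against 3.49% of those of other genes. The length of the zones and the excess of peaks move together, and the part of length was not tested in this value.

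**Figure D3:**
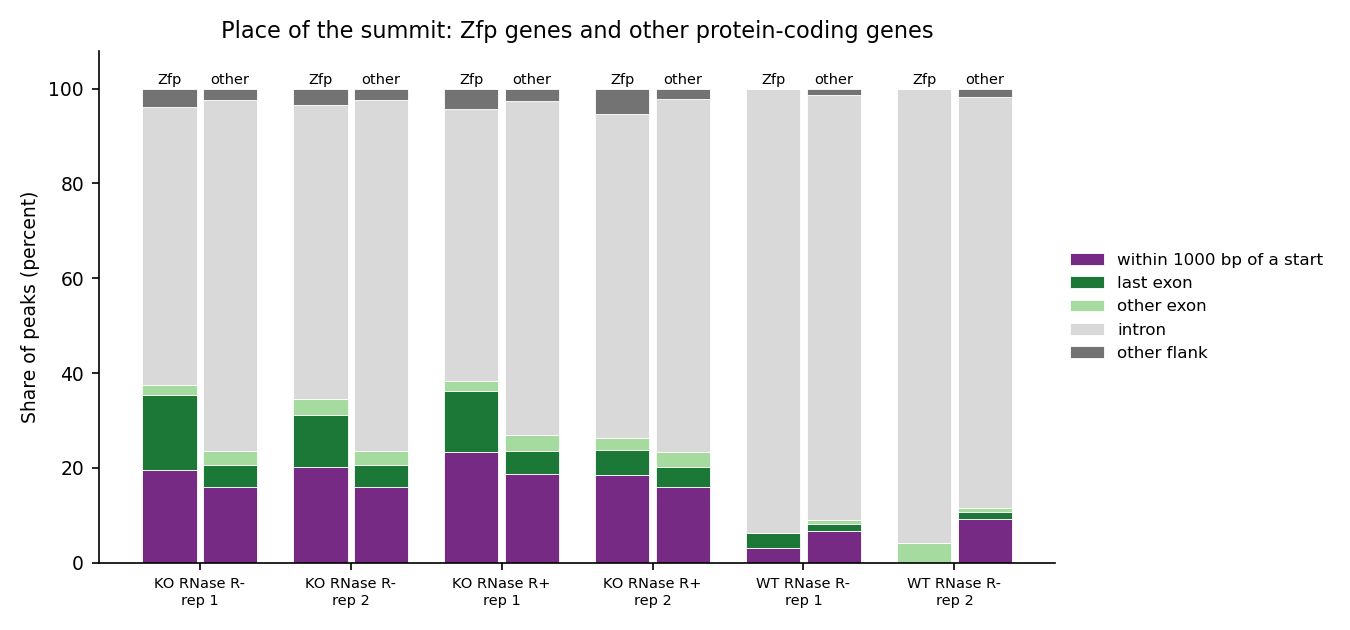
Share of peaks in percent by place of the summit, for Zfp genes (left bar of each pair) and other protein-coding genes (right bar), in the 6 libraries with at least 20 Zfp peaks. The last exon share of KO RNase R- is 15.8% and 10.9% in Zfp genes and 4.67% and 4.57% in other genes, and WT Zfp peaks are almost all in introns.

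Within the last exon few summits fell in the zinc finger array. Of the 55 last-exon summits in the 2 KO RNase R- lists, which count a region called in both lists once in each, 4 (7.27%) fell in the array, which makes up 26.2% of last exon length. Another 16 fell in other coding sequence (14.8% of the length) and 35 outside coding sequence (59.1%). These length shares are pooled over the last exons of all Zfp genes, not over the exons that held the peaks. In each list 4 last-exon summits lay in genes with no C2H2 motif, which have no array. Reads without a unique position had been removed, and the part of this in the array was not tested. Zfp553, with 12 C2H2 motifs, had 3 last-exon regions called in both KO RNase R- libraries, of 5.83 and 6.37, 11.4 and 12.7, and 6.51 and 7.91.

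Introns held nearly every WT peak: 30 of 32 and 23 of 24 in WT RNase R-, and the 3 of WT RNase R+ replicate 2. The WT RNase R- shares were 93.8% and 95.8%, and those of other genes were 89.6% and 86.7%. Of the 8 regions that both WT RNase R- libraries shared, 7 lay in introns of the chromosome 4 cluster. They were in Zfp980 (8.06 and 11.5), Zfp600 (13.2 and 15.1, 7.48 and 7.15, and 5.64 and 4.55), Zfp981 (10.8 and 10.96), Zfp985 (7.44 and 7.93) and Zfp984 (9.92 and 9.64). The other was in Zfp407 (6.76 and 7.17), which was also called in both KO RNase R- libraries (6.94 and 8.89). Zfp37 and Zfp936 had peaks in both WT RNase R- libraries too, but in different regions. The 3 peaks of WT RNase R+ replicate 2 were in Zfp697 (7.03), Zfp420 (7.28) and Zfp536 (7.70).

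Zfp536, which represses neuronal differentiation, held the one region outside the cluster that was called in 6 libraries (chr7:37606170-37606543). It had 8.14 and 10.5 in KO RNase R-, 4.01 and 7.41 in KO RNase R+, 5.37 in WT RNase R- replicate 2 and 7.70 in WT RNase R+ replicate 2. This is the AAG-rich intron printed above. Zfp536, Zfp936 and Zfp984 had the most merged KO RNase R- regions, 6 each, followed by 5 genes with 5 each, Zfp385c, Zfp553, Zfp697, Zfp710 and Zfp804b.

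The chromosome 4 cluster held the most WT peaks of the 19 Zfp clusters. It makes up 625 kb of the Zfp zones and in WT RNase R- held 11 and 13 peaks, or 12.7 and 26.9 times the number expected there. In KO RNase R- it held 20 and 20 peaks (2.74 and 2.27 times expectation), and in KO RNase R+ 8 and 8 (4.32 and 5.07 times). WT RNase R+ held 0 and 0. The number of peaks was therefore closer between genotypes here than over all Zfp genes. A cluster of 6 genes on chromosome 15 had a higher ratio in WT RNase R- replicate 1, 16.3, from 2 peaks, and 0 peaks in replicate 2. Without the chromosome 4 cluster the ratio to expectation over all Zfp genes was 1.23 and 1.16 in WT RNase R-, 1.13 and 1.24 in KO RNase R-, and 1.06 and 0.961 in KO RNase R+. Of the 18 genes of that cluster, 11 (61.1%) had a peak in both KO RNase R- libraries, against 26.9% of all protein-coding genes. In both WT RNase R- libraries 5 of the 18 did, against 1.49% of all. The cluster genes were longer, with a median of 30.1 kb against 17.4 kb for all Zfp genes, and the part of length was not tested.

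Sequence similarity in the cluster was high. Of its 34 regions, 28 (82.4%) had a near copy elsewhere in the genome (at least 95% identity over at least 90% of 300 bases around the summit), and each of the 28 had one within the same cluster. Of the other 315 Zfp regions, 11 (3.49%) had a near copy. An intron segment that recurs through the cluster linked 9 regions in 9 genes: Zfp980, Zfp986, Zfp600, Zfp981, Zfp989, Zfp988, Zfp985, Zfp534 and Zfp984. In WT RNase R- 4 of the 9 were called in each replicate, the same 4 in both. In KO RNase R- 5 and 8 were called, and in KO RNase R+ 2 and 3. Smaller families linked 4 and 3 further regions.

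Searching with the Zfp600 window gave 15 copies on chromosome 4, itself included, of which 10 lay in Zfp zones. The other 14 were 95.7% to 99.3% identical to it. A summit lay on 10 and 11 of the 15 in KO RNase R-, on 3 and 3 in KO RNase R+ and on 4 and 6 in WT RNase R-. The copies in Zfp990 and Zfp987 had none in any list. Reads without a unique position had been removed, so reads that match several copies equally well do not enter these peaks. The level the caller expected had a median of 1.98 times the background over the 34 regions, against 1.02 over the other Zfp regions. It was above 2 times the background at 17 of the 34. At the Zfp600 copy it was 3.898 times the background, and at another Zfp600 intron region 4.95 times. The part of near copies and of this raised level in the peaks was not tested.

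**Figure D4:**
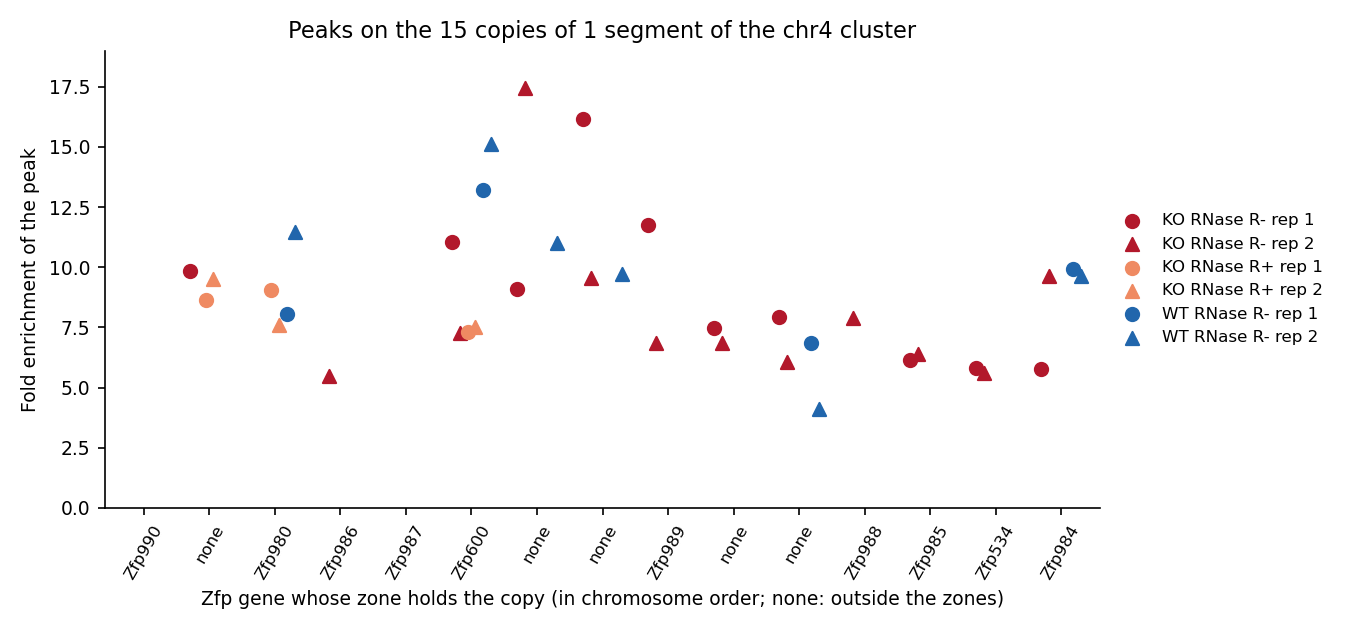
Fold enrichment of peaks whose summit lies on each of the 15 copies of the intron segment, in chromosome order, named by the Zfp gene zone that holds the copy. Circles are replicate 1 and triangles replicate 2; the Zfp600 copy has the highest WT folds, 13.2 and 15.1, and 2 copies have no peak.

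Other clusters differed widely. In the cluster of 6 genes at chr7:4915217-5053723, which holds Zfp524, Zfp784, Zfp580 and Zfp628, there were 6 and 6 peaks in KO RNase R- (9.59 and 7.92 times expectation), 4 and 3 in KO RNase R+ and 0 in every WT library. The 10 genes at chr7:127233061-127885996, Zfp553 among them, had 8 and 6 in KO RNase R-, of which 5 and 4 were in last exons. The 23 genes at chr17:21008903-23599487, with Zfp160, had 16 and 19 (2.09 and 2.05 times). By contrast the 23 genes at chr13:67038596-67827002 had 1 and 3 (0.186 and 0.459 times), the 11 at chr2:174643534-178078476 had 0 and 1, and the 6 at chr11:50811086-51072799 had 0 and 0. Clusters of like gene number thus ranged from none to many times expectation.

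Across all clusters of 5 or more Zfp genes, each within 1 Mb of the next, the ratio to expectation was 1.61 and 1.77 in KO RNase R-, 2.32 and 1.91 in KO RNase R+, and 3.13 and 5.32 in WT RNase R-. The 177 Zfp genes outside clusters had 1.01 and 1.05, 0.661 and 0.778, and 1.08 and 0.894. The chromosome 4 cluster held 11 of 19 and 13 of 18 clustered WT RNase R- peaks. Without it the clustered ratios were 1.54 and 1.73 in WT RNase R-. By gene, 50 of 207 clustered genes (24.2%) were called in both KO RNase R- libraries, against 57 of 177 (32.2%) of the others, whose median length was 20.2 kb against 15.8 kb.

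Shares were also counted by type of protein. C2H2 motifs were counted in the translated coding sequence. Among genes with 10 or more, 58 of 216 (26.9%) were called in both KO RNase R- libraries. The shares were 30 of 102 (29.4%) with 5 to 9, 14 of 52 (26.9%) with 1 to 4, and 5 of 14 (35.7%) with none. The first 3 of these shares stood near the 26.9% of all protein-coding genes. A KRAB A box was read as a fixed pattern of letters (DVA, V or I, any residue, F or L). A domain that departs from this pattern was missed, so genes without the letters may still encode a KRAB domain. Genes whose protein held the letters of a KRAB A box numbered 25 of 130 called (19.2%), against 82 of 254 (32.3%) without them, and were shorter (median 15.8 against 19.1 kb). The difference was not tested. Per length the ratios were 1.22 and 1.32 with these letters and 1.21 and 1.28 without. Of the 8 Zfp genes called in both WT RNase R- libraries, 7 had 10 or more motifs and none had the KRAB letters, where 56.2% of all Zfp genes have that many motifs and 66.1% lack the letters. The chromosome 4 cluster held 5 of the 8.

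Other families stood beside them. The 91 Zbtb, Zscan, Zkscan, Klf and Sp genes, which also encode zinc finger factors, had 37 and 51 peaks in KO RNase R- (0.879 and 1.00 times expectation), 8 and 5 in KO RNase R+, and 0 in all 4 WT libraries. The 1455 olfactory and vomeronasal receptor genes, another family in tandem clusters, had 0.564 and 0.584 times expectation in KO RNase R- and 0.881 and 0.916 times in WT RNase R-.

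Among 17 Zfp genes named for their known roles whatever their values, 7 and 11 had a peak in the KO RNase R- replicates (33.3% and 37.8% of all protein-coding genes did), 7 in both (26.9% of all), and 1 in each KO RNase R+ replicate (11.5% and 10.2% of all). Zfp143, an activator of many promoters, had an intron peak of 9.36 and 8.36 and the single WT call of this list, 6.08 in WT RNase R- replicate 1. Zfp423, which acts in neural and adipocyte precursors, had 3 intron regions in both replicates, the best of 11.4 and 7.28. Zfp462 had 9.36 and 10.1 in an intron. Zfp521 had 8.14 and 6.33, in different intron regions, and 6.51 in KO RNase R+ replicate 2. Zfp568, Zfp148 and Zfp91 were called in KO RNase R- replicate 2 alone, at best folds of 6.83, 7.81 and 6.33. No list held a peak for Zfp57, which maintains imprints, for Zfp42, a pluripotency marker, for Zfp809, which silences proviral DNA, or for Zfp932, Zfp207 and Zfp106.

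The corepressor and heterochromatin genes that KRAB zinc finger proteins act through were examined as a list of 23, of which 21 lie on chromosomes 1 to 19. In both KO RNase R- libraries 12 of 21 were called, where 26.9% of all protein-coding genes were. All of the 21 but Daxx, Cbx3 and Ehmt2 were longer than 17.6 kb, the median length of protein-coding genes that are not Zfp genes. The part of gene length in this share was not tested. In both KO RNase R+ libraries there were 2, Mphosph8 (9.36 and 8.46) and Trim33 (9.88 and 8.99), against 6.0% of all. None was called in both WT RNase R- libraries and 4 in one of them. Trim28 had best folds of 14.3 and 14.1 in KO RNase R- and 7.44 in WT RNase R- replicate 1. Mphosph8, a subunit of the HUSH silencing complex, had 10.3 and 12.1 in KO RNase R- and 9.78 in WT RNase R- replicate 2. The methyltransferase gene Setdb1 had no peak in any list.

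The base composition of the windows differed by place and genotype. In 300 bases around the summit, start peaks of KO RNase R- had a median GC content of 58.2% and 55.0%, last-exon peaks 54.7% and 53.8%, and intron peaks 44.3% and 44.3%. GC skew, the excess of G over C on the gene's strand as a share of both, had a median of 0.15 and 0.15 over all KO RNase R- Zfp peaks (other genes 0.10 and 0.085) and 0.25 and 0.38 in KO RNase R+ (0.19 and 0.17). In WT RNase R- it was -0.047 and -0.16 (-0.046 and -0.037). The medians were therefore above 0 in the 4 KO libraries and below 0 in both WT RNase R- libraries, in Zfp and other genes alike. Among KO RNase R- last-exon peaks, 82.8% and 88.5% had a skew above 0, against 66.3% and 63.9% in other genes. The chromosome 4 cluster went the other way, with medians of -0.24 and -0.41 in KO RNase R-. In KO RNase R+ its medians were -0.28 and 0.22 over 8 peaks each.

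A motif of 4 G in a row (GGGG on either strand, so that CCCC counts too, overlaps included) was present in 71.7% and 74.8% of KO RNase R- Zfp windows and in 89.4% and 84.2% of the KO RNase R+ ones. In windows set every 2000 bases over the Zfp zones the share was 67.6%, so the motif was near its background in RNase R-. The corresponding shares of other genes were 68.7% and 69.5%, then 69.4% and 65.2%, with 70.8% in windows set every 100000 bases over all protein-coding zones.

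Long runs of purines or pyrimidines were more frequent in the windows around summits than in the evenly set windows. An unbroken run of at least 25 purines or 25 pyrimidines was held by 39.7% and 35.7% of KO RNase R- Zfp windows, 36.2% and 42.1% of KO RNase R+ and 31.2% and 33.3% of WT RNase R- windows. Of the evenly set Zfp windows 4.55% held one. In introns the shares were 53.7% and 45.9%, 48.1% and 50.0%, and 30.0% and 34.8%, against 4.66% of the evenly set intron windows. Other genes had more still, 50.2% and 50.0% over all KO RNase R- peaks. In the last exons of Zfp genes the share was 10.3% and 3.85%. On the gene's strand the run was of purines in 38 of 73 and 53 of 85 KO RNase R- windows and in 3 of 10 and 3 of 8 WT RNase R- windows. These windows share libraries and repeats, so the shares are a description.

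**Figure D5:**
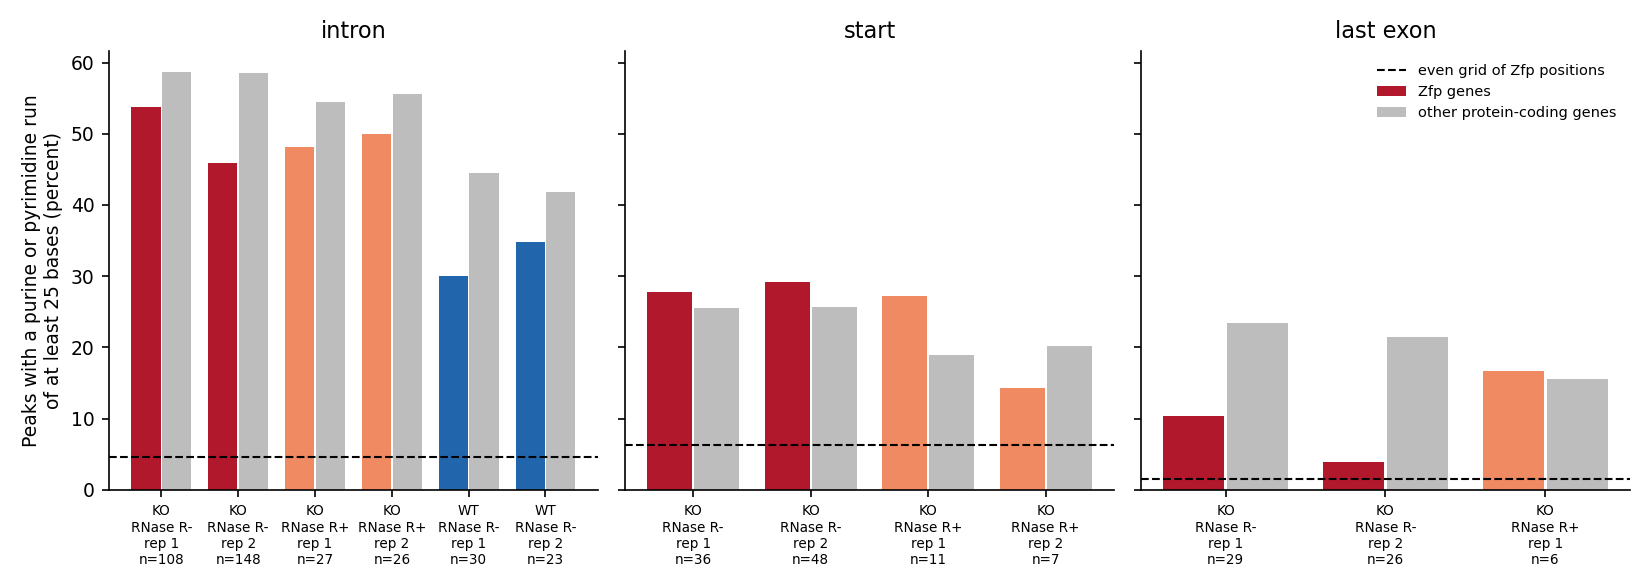
Share in percent of peak windows of 300 bases that hold a run of at least 25 purines or pyrimidines, in introns, at starts and in last exons, for Zfp genes (coloured) and other protein-coding genes (grey) in libraries with at least 5 Zfp peaks there (n under each pair); dashed lines mark evenly spaced Zfp positions. Intron shares of 30.0% to 53.7% in Zfp genes stand above the line at 4.66%.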

How the data were processed

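DRIP-seq peak lists of 8 immunoprecipitates (4 groups of 2 replicates, from the labels) were analysed. The authors aligned reads to GRCm38 (mm10) with Bowtie2, removed duplicates, reads with many mismatches and reads without a unique position with SAMtools 1.1, and ran MACS2 on every replicate separately at a q of 0.001. The control library is not given in the sources used here. The deposited fold enrichment is a ratio of summit height to expected level, and the deposited p and q are −log10 values; none was renormalized. Only peaks that passed the caller are listed, so the absence of a peak gives no level, and the number of peaks can move with the depth of a library. Unique mapping limits what duplicated genes can show.

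Summits were placed on GENCODE M21 genes with 1000 bp flanks on chromosomes 1 to 19; overlapping classes went to start, last exon, other exon, intron and flank in that order. Expected numbers are the density over all protein-coding zones times the Zfp zone length. The background level is the lowest expected level of a list, recovered from fold and p with a tolerance of 0.0001. Zfp609 was left out by the selection rule. C2H2 and KRAB letters were counted in translated GENCODE coding sequences, the longest of each gene. KRAB letters were DVA, V or I, any residue, and F or L, and other forms of the domain were not sought. Near copies were searched with BLAST+ 2.17.0 (megablast, word size 44, at least 95% identity and 90% coverage of 300 bases). Python 3.11.15, pandas 2.3.3 and scipy 1.17.1 were used. Tests were exact sign-flip or permutation tests over libraries, two-sided, with Benjamini-Hochberg adjustment over 9 tests, and were tested on simulated data; the threshold was 0.05. Alternatives changed the symbols, flank, peak strength, placement, reference, added number and libraries.

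The genes named were the 10 of highest fold in both KO RNase R- libraries, the 8 highest in both KO RNase R+ libraries, those in both WT RNase R- or any WT RNase R+ library, the 5 with most KO RNase R- regions (Zfp536, Zfp936, Zfp984, Zfp385c and Zfp553, the last 2 taken in alphabetical order from 5 tied genes, of which the other 3 are named as well), those in at least 6 libraries, and 17 genes of known role. The members, lists and tests were chosen with earlier results of these data known, and the purine run, the segment and the printed windows after seeing the data. The sequence of the chromosome 4 intron segment is not reported here.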

Additional observations from a re-analysis of the deposited data

How the results depend on the processing

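The lists give no read counts, and the number of peaks was not corrected for depth. With 2 replicates a group the smallest exact p is 0.333 for KO against WT within a treatment. WT RNase R+ has 3 Zfp peaks in all.

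No result passed the threshold as reported. The relative density of Zfp peaks passed it in 1 of 20 alternatives, without WT RNase R+ replicate 1 (0.55, exact p = 0.0156). The KO minus WT difference in relative density turned to -0.035 with no flank, -0.42 with the same number of strongest peaks by −log10 p, -0.059 without peaks of raised expected level, -0.071 with 1 added to each number and -0.085 with the expectation from each zone apart; the cause was not tested. The KO to WT difference in peak number without RNase R turned to -0.16 with the same number of strongest peaks, where every list has the same total by construction. The start share turned to -0.55 points with no flank and -0.0041 points at −log10 q of at least 5, and the fold difference to -0.032 at a fold of at least 10. The other alternatives, apart from those that leave out a library, kept the direction of each result and its side of the threshold. For the genotype and RNase R results that side was fixed in advance, as the smallest possible exact p was 0.0556 or 0.333. For the share and fold results it was fixed where fewer libraries remained. The smallest possible p was 0.0625 at −log10 q of at least 5 or without the chromosome 4 cluster, and 0.5 at a fold of at least 10.

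Leaving out each library in turn gave ranges of 0.12 to 0.55 for the relative density, -0.59 to 0.69 for the genotype effect on it, -1.45 to -0.18 for the RNase R effect on it, 2.69 to 3.10 and 3.61 to 6.42 for KO to WT peak numbers without and with RNase R, -4.06 to -2.65 for the RNase R effect on number, -0.53 to 2.26 points for the start share, 3.10 to 5.61 points for the last exon share and 0.031 to 0.073 for fold. The genotype effect turned without WT RNase R- replicate 1 (-0.053) or WT RNase R+ replicate 1 (-0.59), and the start share turned without each of the 4 KO libraries in turn (-0.53 to -0.084 points).

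Blocking on the replicate number left the values the same by construction (0.049, -0.81, 2.89, 5.01 and -3.35), with exact p of 1, 0.25, 0.5, 0.5 and 0.125. The numbers are not shown to pair the libraries: deviations of same-numbered libraries correlated at 0.19 over 5 regions called in all 4 RNase R- libraries and at -0.099 over 14 regions called in all 4 KO libraries. Without the chromosome 4 cluster, chosen after seeing the data, the start share was 5.28 points higher than in other genes and the last exon share 7.33 points (exact p = 0.125 and 0.0625).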
